A study of Mus musculus with 18 samples.

Results

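Transcripts of 6 intermediate filament genes were followed across 18 mouse RNA sequencing libraries: the simple-epithelium keratins Krt7, Krt8, Krt18, Krt19 and Krt23, and vimentin (Vim). They were taken by symbol from a list and found as 6 of the 54752 Ensembl genes of the deposited count table, which holds 53 protein-coding keratin genes in all. The libraries came from 2 mouse ovarian cancer lines, HM-1 (strain B6C3F1) and ID8 (strain C57BL6), with HM-1 grown in MEM alpha and ID8 in RPMI 1640. HM-1 cells were also injected into the skin of B6C3F1 mice, and those tumors were taken at day 10. HM-1 cultures, ID8 cultures and HM-1 tumors each came as control and as Cd276KO, a knockout label for the immune checkpoint gene Cd276, which encodes B7-H3, with 3 biological replicates in each of the 6 groups. Neither the number of edited clones nor the age of the mice is given in the sources used here, so the replicates of a label may share 1 clone, and whether they came from separate cultures is not stated beyond the word biological. The p-values measure the spread between these libraries.

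Keratins form filaments only as pairs of a type I and a type II chain. In simple, single-layered epithelia the core pair is the type II chain KRT8 with the type I chain KRT18, KRT7 is a further type II chain of ducts and glands, and KRT19 and KRT23 are type I chains that can also take KRT8 as partner. Vimentin forms filaments by itself, is the filament protein of mesenchymal cells, and is often present beside keratins in cultured carcinoma cells.

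The type II genes lie together on chromosome 15 of GRCm38 in the GENCODE M21 annotation, where Krt7 (ENSMUSG00000023039.17) spans chr15:101411043-101430313 on the plus strand and Krt8 (ENSMUSG00000049382.10) chr15:101996698-102004482 on the minus strand. Krt18 (ENSMUSG00000023043.7, chr15:102028180-102032027, plus strand) is the 1 type I member of that chromosome and starts 23.7 kb from Krt8. Krt19 (ENSMUSG00000020911.14, chr11:100140810-100148665) and Krt23 (ENSMUSG00000006777.7, chr11:99477974-99493137), both on the minus strand, sit 647.7 kb apart among the type I genes of chromosome 11. Vim (ENSMUSG00000026728.9) spans chr2:13573927-13582826 on the plus strand. Each of the 6 is a protein-coding gene, and the values are summed over its exons. A lincRNA, Gm36026, overlaps Krt8 on the opposite strand with 19 to 68 counts per library against 20424 to 61866 for Krt8, and the antisense gene Gm671 overlaps Krt7 with 0 to 3 counts. The pseudogene Krt8-ps held 22 to 132 counts, and reads that fit both copies could have been lost from either.

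The upstream sequences of the Krt8 and Krt18 pair and of Krt7 are shown because the neighbours Krt8 and Krt18 did not move together in the cultures, and because Krt7 had higher means in tumors than in cultures. They come from the RefSeq table of GRCm38.p6 and hold the bases before the RefSeq start that lie outside exons of the gene's coding transcripts in GENCODE M21. Capitals mark CACCTG, the E2 box bound by Snail and ZEB repressors.
Krt8 (chr15:102004483-102004592, minus strand): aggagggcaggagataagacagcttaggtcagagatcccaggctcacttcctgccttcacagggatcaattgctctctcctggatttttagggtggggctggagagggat
Krt18 (chr15:102027966-102028179, plus strand): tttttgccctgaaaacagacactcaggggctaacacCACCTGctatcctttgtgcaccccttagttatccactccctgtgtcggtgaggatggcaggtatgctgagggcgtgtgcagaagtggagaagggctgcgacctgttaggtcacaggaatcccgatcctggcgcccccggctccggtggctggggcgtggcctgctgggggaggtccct
Krt7 (chr15:101412153-101412401, plus strand): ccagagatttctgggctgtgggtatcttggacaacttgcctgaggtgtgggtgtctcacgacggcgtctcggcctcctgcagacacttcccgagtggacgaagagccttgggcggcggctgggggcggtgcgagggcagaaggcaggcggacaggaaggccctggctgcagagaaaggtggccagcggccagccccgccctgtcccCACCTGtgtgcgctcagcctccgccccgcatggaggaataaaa

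Of the 6 members, 5 had an upstream window of 250 bases in the RefSeq table, and Krt19 was not among them. CACCTG stood on either strand in 4 of those 5 windows, against 17.1% of 27025 windows of the same length, and it began 44 bases before the RefSeq start in Krt7, 111 in Krt8 (in a stretch that a GENCODE exon of Krt8 covers, not shown), 214 in Krt18 and 232 in Krt23. The Vim window held none. It held TATAAA (13.0% of windows) 32 bases before the RefSeq start, but all 250 of its bases lie in a GENCODE exon of Vim, so it is not shown. None of the 5 held the AP-1 motif TGANTCA, present in 6.9% of windows. The remaining motifs searched on both strands were GGGCGG (1 of 5, against 32.9%), CACCC (4 of 5, 51.3%), CCAAT (1 of 5, 34.5%) and the NF-kB motif (3 of 5, 17.3%). No marked CACCTG overlapped another of these motifs, and each match is a description of letters, not a binding site.

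The libraries held 17349082 to 30959773 counts. Before any result, 2 libraries stood apart from their group. HM-1 control culture 1 differed from cultures 2 and 3 by a chi-square of 64.95 and 63.86 per gene, against 1.571 between cultures 2 and 3. HM-1 control tumor 3 differed from control tumors 1 and 2 by 134.1 and 81.31, against 41.07 between those tumors and 11.9 to 35.75 among the Cd276KO tumors. Cd276 itself was lower under its knockout label in the HM-1 cultures (46.6 ± 1.53 counts per 1000000 of the library total, CPM, against 86.4 ± 10.6, SD, n = 3 each; edgeR adjusted p = 0.0015). In ID8 it stood at 19.4 ± 1.45 against 20.9 ± 0.299 CPM (adjusted p = 0.692) and in tumors at 86.6 ± 12.3 against 122 ± 18.1 CPM (adjusted p = 0.105), so the ID8 and tumor libraries are called by their label only. The epithelial markers Epcam, Cdh1, Cldn3, Cldn4 and Cldn7 summed to 0.828 to 1.13 CPM in the HM-1 control cultures and 0.461 to 0.670 CPM in those labelled Cd276KO, with Epcam at 0 in all 6, whereas they summed to 14.4 to 18.7 CPM in ID8 controls and 58.5 to 63.2 CPM in ID8 labelled Cd276KO. In HM-1 cultures this list of epithelial junction and adhesion markers was thus near 0 beside abundant keratin mRNA.

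Krt8, Krt18, Krt19 and Vim were among the most abundant transcripts of every group, and Krt7 and Krt23 were near 0 in culture. Compared per length, as CPM per kilobase of exon (RPKM), the HM-1 control cultures held Krt18 at 1329 ± 177, Krt8 at 1314 ± 122.7, Vim at 1178 ± 68.2 and Krt19 at 615 ± 55.6 RPKM. With the longest transcript as length, Vim stood at 1910.1 RPKM there, above Krt18 and Krt8, whose lengths do not change, so the order of Vim and the keratins depends on the length used. By RPKM, Krt8 ranked 16 to 18 among all protein-coding genes in the HM-1 cultures, 85 to 107 in the ID8 cultures and 19 to 35 in the tumors. Krt8, Krt18 and Krt19 together made up 98.9% to 99.5% of the RPKM of all 53 keratin genes in the culture libraries. The order of the groups differed by gene. Krt18 was highest in HM-1 control cultures, followed by control tumors, HM-1 Cd276KO cultures, Cd276KO tumors, ID8 Cd276KO and ID8 controls, and of these neighbours Cd276KO cultures and Cd276KO tumors alone overlapped in range. For Krt19 the HM-1 Cd276KO cultures had the highest mean and did not overlap HM-1 controls, while control tumor 3 (1633 CPM) lay above the lowest of them (1623 CPM), and the next 3 groups (HM-1 control cultures and both tumor groups) overlapped with their neighbours. Krt8 and Vim had their lowest levels in both ID8 groups, which overlapped each other.

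**Figure D1:**
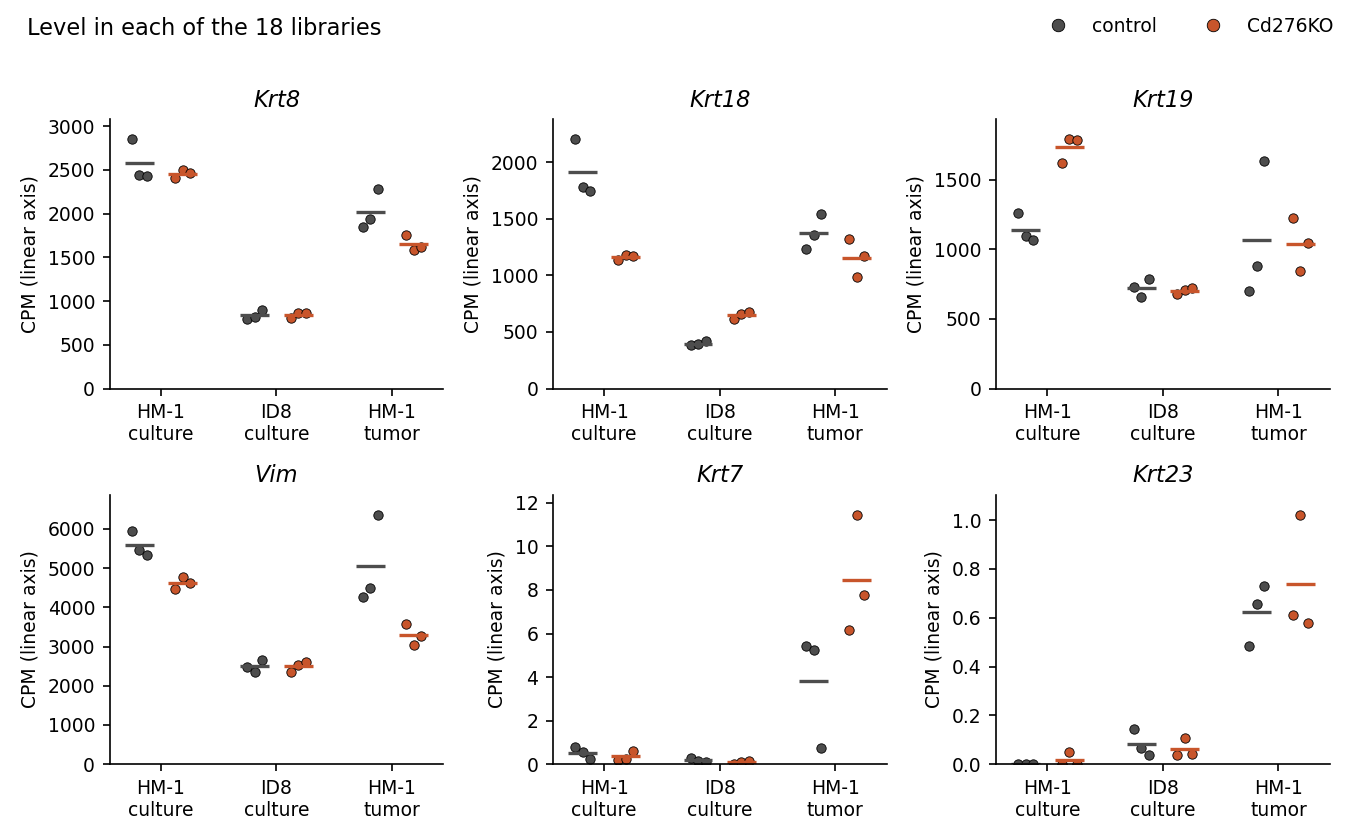
CPM of the 6 genes on linear axes in the 3 libraries of each group, with points for libraries and horizontal bars for group means; grey is control and orange Cd276KO. Krt18 lies lower under the Cd276KO label in HM-1 cultures and higher in ID8 cultures. Control tumor 3 (the third grey tumor point) is, among the 6 tumors, highest for Krt8, Krt18, Krt19 and Vim and lowest for Krt7.

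In HM-1 cultures the 2 type I keratins moved in opposite directions while their type II partner did not pass the test. Of the 5 members tested, 1 was called higher under the Cd276KO label and 1 lower (called: edgeR adjusted p under 0.05), in a comparison where 11.6% of all genes tested were called higher, 16.1% lower and 27.7% in either direction. The median log2 fold change of the 5 was -0.23, against -0.01 over all genes tested. Krt18, the type I partner of the core pair, measured 2203, 1779 and 1748 CPM in the controls and 1137, 1176 and 1173 CPM under the Cd276KO label. The groups did not overlap, and the labelled libraries lay close together. Krt18 fell by 0.68 on the log2 scale (SE 0.12, adjusted p = 0.0064). Krt19, the smallest keratin and one that lacks most of the tail domain, measured 1259, 1094 and 1069 CPM in controls and 1623, 1794 and 1791 CPM under the label. All 3 labelled libraries stood above all 3 controls, and the log2 fold change was 0.65 (SE 0.10, adjusted p = 0.0049). Without control culture 1 both calls held, at -0.55 for Krt18 and 0.74 for Krt19. That fit called 3632 genes higher and 3859 lower, of 12685 tested. With the spread estimated over all 18 libraries the Krt19 call was lost (adjusted p = 0.079).

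Krt8 measured 2851, 2440.1 and 2429.8 CPM in HM-1 controls and 2406, 2502 and 2464 CPM under the label. The groups overlapped, and the 95% interval of the log2 fold change was -0.22 to 0.16 (adjusted p = 0.85). Control culture 1, the library that stood apart, was the highest of the 3 controls for each of Krt8, Krt18, Krt19 and Vim. Vim measured 5956, 5468 and 5343 CPM in controls and 4463, 4784 and 4629 CPM under the label, without overlap. The log2 fold change of Vim was -0.23 (SE 0.088, adjusted p = 0.090), and without control culture 1 Vim was called lower at -0.17 (adjusted p = 0.00013). The fit without that library called 3859 of 12685 genes lower, against 2002 of 12457 with all libraries. Krt7 held 6 to 14 counts per control library and 4 to 12 per labelled library, too few to resolve a difference (95% interval of the log2 fold change -1.64 to 0.63). Krt23 held no count in the 3 controls and 1 count in all labelled libraries, and was not tested.

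In ID8 cultures Krt18 was the 1 member called, and it rose. It was 1 of 4 members tested, in a comparison where 60.7% of all genes tested were called, 29.4% higher and 31.3% lower, so a single call is below the share of all genes. The median of the 4 was 0.08, against -0.01 over all genes. Krt18 measured 381, 391 and 421 CPM in ID8 controls and 610.2, 657 and 677 CPM under the Cd276KO label. The groups lay far apart relative to their spread, and the fitted log2 change was 0.78 (SE 0.062, adjusted p = 2.0e-10). Krt8 measured 791, 815 and 899.8 CPM in controls and 808, 861 and 865 CPM under the label, and its log2 interval ran from -0.03 to 0.21. Krt19 measured 727, 659.8 and 785 CPM against 679, 710.0 and 720.5 CPM, with an interval of -0.09 to 0.16. Vim measured 2466, 2344 and 2666 CPM against 2346, 2523 and 2618 CPM, with an interval of -0.05 to 0.21. For these 3 genes the groups overlapped, and the intervals give only roughly the sizes of change that the libraries leave possible. Without control culture 3 of ID8, Krt8 (log2 fold change 0.16, adjusted p = 0.019) and Vim (0.14, adjusted p = 0.047) were called higher. The 4 mesothelial and ovarian surface markers summed to 1079 to 1136 CPM in ID8 controls and to 1951 to 2014 CPM under the label, with Wt1, Upk3b and Lrrn4 called higher and Msln not called. In HM-1 cultures, where Krt18 fell, they summed to 12.2 to 14.5 CPM in controls and to 44.2 to 49.7 CPM under the label, with Msln called higher. Their relation to Krt18 was not tested. Krt7 (0 to 8 counts per ID8 library) and Krt23 (1 to 4 counts) were below the filter.

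The knockout effect itself was compared between the lines with an interaction term over the 12 culture libraries. Here 2 of 5 members tested were called higher in ID8 than in HM-1 and 1 lower, against 19.8%, 20.7% and 40.4% of all genes for higher, lower and either direction. The effect on Krt18 was more positive in ID8 by 1.45 on the log2 scale (SE 0.13, adjusted p = 2.9e-06), a fall in HM-1 against a rise in ID8. The effect on Krt19 was lower in ID8, with a difference of -0.62 (SE 0.13, adjusted p = 0.0018), and this call was lost with the spread of all 18 libraries (adjusted p = 0.24). The Vim term of 0.30 (SE 0.11, adjusted p = 0.049) was at the threshold, and missed it when any 1 of 8 of the 12 libraries was left out, with an adjusted p of up to 0.12. Krt8 gave 0.11 (adjusted p = 0.51) and Krt7 -0.59 (adjusted p = 0.69). Line and culture medium cannot be told apart in this term, and the effect on Cd276 mRNA itself differed between the lines (0.80, SE 0.12, adjusted p = 0.00023).

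**Figure D2:**
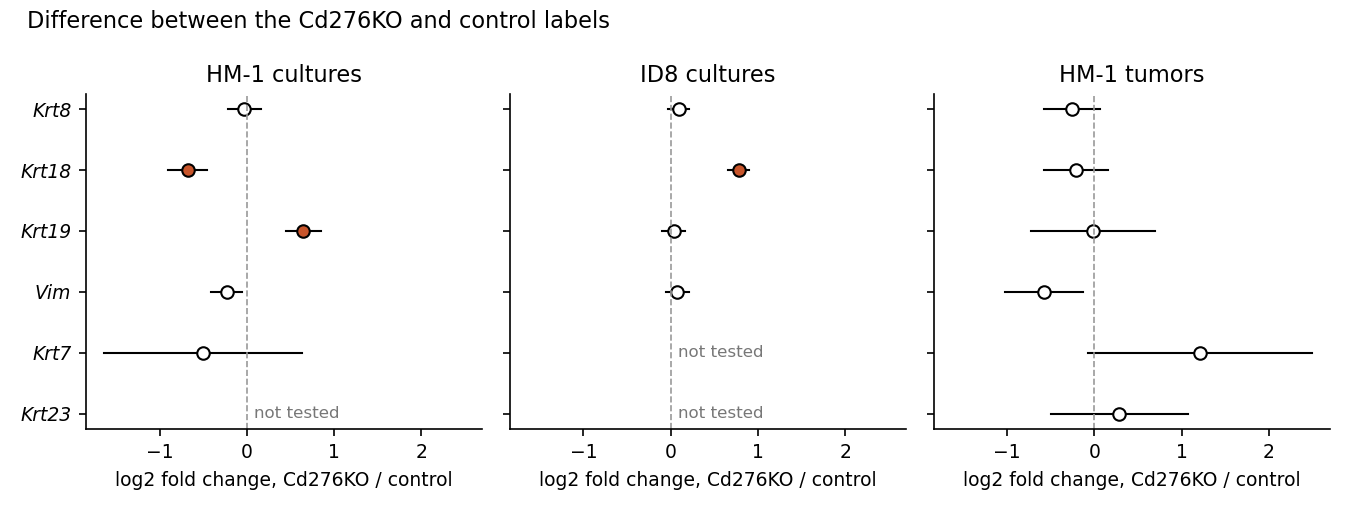
Log2 fold change of each gene, Cd276KO over control, with its 95% interval, in HM-1 cultures, ID8 cultures and HM-1 tumors; filled points passed the edgeR test. Krt18 is at -0.68 in HM-1 and 0.78 in ID8 cultures, Krt19 at 0.65 in HM-1 cultures, and all 6 intervals of the tumors come with open points.

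The same counts can be read as the make-up of the filament transcripts, per length. The ratio of Krt8 to Krt18 RPKM was 0.95 to 1.02 in HM-1 controls and 1.54 to 1.56 under the Cd276KO label, and in ID8 it was 1.53 to 1.57 in controls and 0.938 to 0.971 under the label. Krt19 made up 30.7% to 32.3% of type I RPKM in HM-1 controls and 52.5% to 54.2% under the label. In ID8 the share was 56.6% to 59.6% in controls and 45.2% to 46.3% under the label. These ratios restate the counts tested above and were not tested again. With the longest transcript in place of the exon union as gene length, the Krt19 shares were 34.3% to 35.9% and 56.6% to 58.2% in HM-1, and 60.6% to 63.5% and 49.2% to 50.3% in ID8. Vim RPKM relative to the 5 keratins was 0.342 to 0.375 in HM-1 controls, 0.321 to 0.329 under the label, 0.473 to 0.490 in ID8 controls and 0.411 to 0.424 under the label. With the longest transcript these ratios were 0.537 to 0.588, 0.493 to 0.506, 0.724 to 0.745 and 0.633 to 0.653, higher in level and in the same order. In the tumors the Krt8 to Krt18 ratio was 1.05 to 1.10 in controls and 0.977 to 1.18 under the label, ranges that overlapped. The Krt19 share was 30.5%, 33.5% and 45.1% in control tumors 1, 2 and 3 and 39.9% to 41.9% under the label. Vim relative to the 5 keratins was 0.393 to 0.431 in control tumors and 0.305 to 0.329 under the label, without overlap. With the longest transcript it was 0.615 to 0.665 and 0.472 to 0.512.

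**Figure D3:**
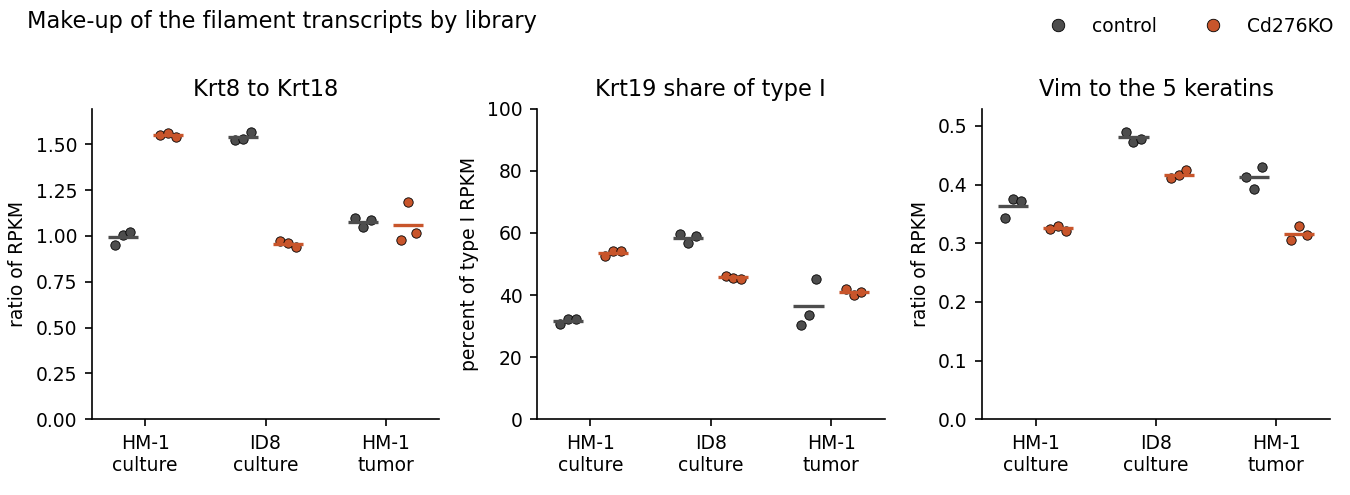
Ratio of Krt8 to Krt18 RPKM, Krt19 as a percent of type I RPKM (Krt18, Krt19 and Krt23), and ratio of Vim to the summed RPKM of the 5 keratins, by library, with bars at group means. The Krt8 to Krt18 ratio moves from about 1 to 1.54 or more under the Cd276KO label in HM-1 and the other way in ID8. The tumor groups overlap for that ratio and for the Krt19 share. The Vim ratio lies at 0.393 to 0.431 in control tumors and 0.305 to 0.329 in Cd276KO tumors.

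In tumors no member was called between the labels, among 5.39% of all genes called (2.2% higher, 3.19% lower). At an unadjusted p under 0.05, 3836 of the 15345 genes passed, and Vim was the 1 member among them by edgeR. DESeq2 and limma voom also called 0 members here. The median of the 6 members was -0.12, against -0.03 over all genes tested. Vim measured 4273, 4491 and 6359 CPM in control tumors and 3580.0, 3051 and 3277 CPM in Cd276KO tumors. Every Cd276KO tumor lay below every control tumor, and the fitted log2 change was -0.58 (SE 0.23, adjusted p = 0.18). The share of all genes whose tumor groups lay apart is not given here, so such separation, also for the genes below, is only a description. The call was made at 0.011 when the spread was estimated over all 18 libraries. Krt8 measured 1848, 1935 and 2275 CPM in controls and 1753, 1588 and 1617 CPM under the label, again without overlap (fitted log2 change -0.25, SE 0.16, adjusted p = 0.39).

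Krt18 measured 1235, 1357 and 1538 CPM in control tumors and 1317, 984 and 1167 CPM in Cd276KO tumors, which overlapped (log2 fold change -0.21, adjusted p = 0.53). Krt19 measured 699, 883 and 1633 CPM against 1228, 843 and 1046 CPM. The third control tumor was the highest of all 6 for Krt19, as it was for Krt8, Krt18 and Vim. The log2 fold change of Krt19, -0.02 (interval -0.73 to 0.69), became 0.48 without that tumor (adjusted p = 0.19). Krt7, the ductal type II chain, measured 5.42, 5.25 and 0.730 CPM in control tumors and 6.18, 11.5 and 7.78 CPM in Cd276KO tumors. All Cd276KO tumors stood above all controls, and the control group was split by tumor 3 (log2 fold change 1.21, SE 0.66, adjusted p = 0.30). Krt23 measured 0.486 to 0.730 CPM and 0.576 to 1.02 CPM, from 10 to 24 counts per tumor (adjusted p = 0.70).

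The effects in tumors and in cultures of HM-1 were also compared directly, and 0 of 6 members were called, where 2.84% of all genes were (1.72% higher, 1.12% lower) and 2279 of 15623 genes had an unadjusted p under 0.05. The Krt18 effect was 0.46 higher in tumors (SE 0.19, interval 0.09 to 0.84, adjusted p = 0.29) and the Krt19 effect -0.65 (SE 0.36, adjusted p = 0.47). With limma voom and quality weights, 3 members were called in this term: Krt18 at 0.38 (adjusted p = 0.019), Krt19 at -0.45 (0.048) and Krt8 at -0.28 (0.023). That setting called 1668 of the 15623 genes higher and 1394 lower.

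A tumor library mixes HM-1 cells with cells of the host, and in such bulk RNA fewer cells of a type and less RNA per cell cannot be told apart. Control tumor 3 carried the keratins of stratified skin epithelium: Krt14 was at 108 CPM, Krt16 at 69.4, Krt5 and Krt6a at 51.4 each, Krt17 at 43.7 and Krt1 at 19.7 CPM, where the other 5 tumors held at most 0.202 CPM of any of them. These 6 genes were picked after their values were seen. The 9 keratinocyte markers summed to 226 CPM in that tumor, to 6.94 to 8.24 CPM in the other 5 and to 6.02 to 7.88 CPM in the HM-1 cultures. The same library was the lowest of the 6 tumors for the 8 fibroblast markers (589 CPM, against 3758 to 18109) and for the 5 endothelial markers (63.8 CPM, against 123.1 to 251). The share of the Krt8, Krt18 and Krt19 sum in keratin RPKM was 92.7% at the lowest in control tumors and 98.7% to 99.2% in Cd276KO tumors. Leukocytes, fibroblasts and endothelial cells are known to express Vim. The 7 leukocyte and macrophage markers summed to 1396, 1046 and 899 CPM in control tumors 1, 2 and 3. In Cd276KO tumors they summed to 416, 709 and 622 CPM. Between the labels they moved in the same direction as Vim without overlap. Within each label the 3 tumors ranked in reverse order for Vim. Vim stood at 4273, 4491 and 6359 CPM in controls and 3580.0, 3051 and 3277 CPM under the label. Of the 7 leukocyte and macrophage markers, Cd68 and Itgam were called lower under the label, against 3.19% of all genes. Every call between the tumor labels, here and below, was lost with the replicate block (0 genes called) and without Cd276KO tumor 2 or 3 (0 genes each), and without Cd276KO tumor 1 a single gene was called. Striated muscle markers summed to 112, 0.703 and 1.09 CPM in control tumors and to 80.6, 655 and 601 CPM in Cd276KO tumors. The 4 markers of mesothelium and ovarian surface epithelium, cell types that carry simple keratins, summed to 102, 107 and 170.1 CPM in control tumors and to 72.2, 92.0 and 76.9 CPM in Cd276KO tumors, the same direction as Krt8 without overlap. Msln made up most of that sum, and Wt1 was the 1 call of 2 tested (1.58 ± 0.557 to 0.152 ± 0.0889 CPM, lower). The 5 epithelial markers summed to 10.6, 5.86 and 21.3 CPM in controls and 2.11, 3.92 and 2.42 CPM under the label, also without overlap. None of the 8 fibroblast, 5 endothelial, 5 muscle or 2 tested adipocyte markers was called. The part of these cells in the values of Krt7, Krt8, Krt19 and Vim was not tested.

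**Figure D4:**
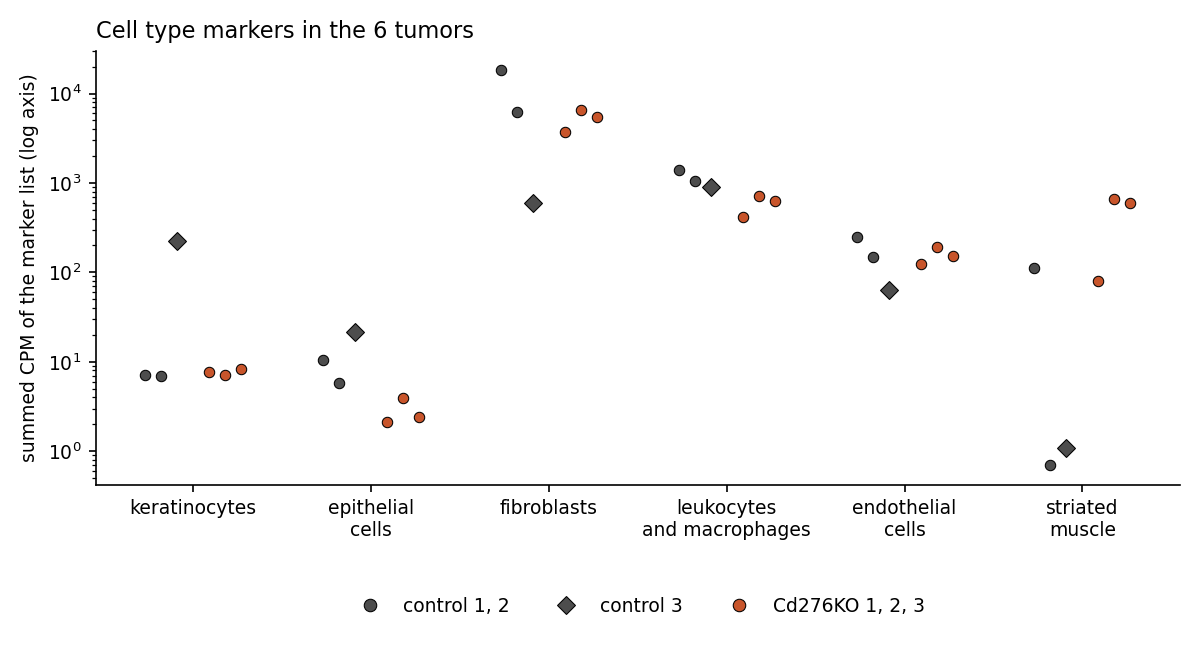
Summed CPM of 6 cell type marker lists on a log axis in the 6 tumors; grey circles are control tumors 1 and 2, the grey diamond control tumor 3 and orange circles the Cd276KO tumors. The diamond lies at 226 CPM for keratinocytes, where the other tumors lie at 6.94 to 8.24, and at the bottom for fibroblasts and endothelial cells.

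Compared with control cultures, control tumors held more Krt7 and Krt23 and less Krt18. Of the 6 members 2 were called higher and 1 lower, where 25.3% of all genes were called higher, 16.6% lower and 41.8% in either direction, and the median of the 6 was -0.26 against 0.05 over all genes. Upper-quartile scaling shifted the median of all genes to 0.19 here and to 0.25 in the Cd276KO comparison below (from 0.08), and turned the split of 3689 higher and 2418 lower genes into 4165 and 1701. Krt23 rose from no count in the 3 cultures to 40 counts in the 3 tumors, at least 13.6-fold higher when the cultures together are set to 3 counts (adjusted p = 0.0031). Krt7 rose from 0.533 ± 0.271 to 3.80 ± 2.66 CPM (SD, n = 3), a fitted log2 change of 2.68 (SE 0.80, adjusted p = 0.032). The Krt7 groups overlapped, with control tumor 3 at 0.730 CPM inside the culture range of 0.253 to 0.794 CPM. Krt18 fell from 1910.2 ± 254 to 1376 ± 152 CPM, a fitted log2 change of -0.62 (SE 0.19, adjusted p = 0.034). The Krt7 and Krt18 calls were each lost when any 1 of 5 libraries was left out (adjusted p of up to 0.10 and 0.093), and Krt18 also with upper-quartile scaling (-0.48, adjusted p = 0.085). Without control tumor 3, the library with the skin keratins, 4 members were called lower: Krt18, Krt8 at -0.62, Krt19 at -0.71 and Vim at -0.53 (adjusted p = 0.028, 0.022 and 0.044 for the last 3). That fit called 2806 of 15211 genes lower and 4266 higher.

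In the Cd276KO groups the difference between tumor and culture took in 5 of 6 members, 2 higher and 3 lower, where 41.2% of all genes were called higher, 34.5% lower and 75.7% in either direction. The median of the 6 was -0.38, against 0.08. Krt7 rose from 0.355 ± 0.230 to 8.47 ± 2.70 CPM, a fitted log2 change of 4.43 (SE 0.39, adjusted p = 1.2e-05), and Krt23 from 1 count to 45 (ratio of pooled levels 45.8, 95% counting interval 7.81 to 1849; adjusted p = 0.00031). Krt19 fell by 0.87 on the log2 scale (SE 0.15, adjusted p = 0.00058), Krt8 by 0.70 (SE 0.091, adjusted p = 0.00012) and Vim by 0.62 (SE 0.11, adjusted p = 0.00074). Krt18 stood at 1162 ± 21.7 CPM in cultures and 1156 ± 167 CPM in tumors (interval -0.37 to 0.10), and its direction turned to 0.03 with upper-quartile scaling. The 8 fibroblast markers and the 5 endothelial markers were all called higher in tumors than in cultures under both labels.

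Between the control lines, ID8 held less of all 4 abundant members. All 4 tested were called lower and 0 higher, where 29.6% of all genes were called lower, 28.8% higher and 58.3% in either direction, and the median of the 4 was -1.44 against -0.01. Krt18 had a fitted log2 change of -2.31 (SE 0.13, adjusted p = 2.5e-06), Krt8 of -1.67 (SE 0.12, adjusted p = 8.7e-06), Vim of -1.21 (SE 0.11, adjusted p = 3.4e-05) and Krt19 of -0.70 (SE 0.12, adjusted p = 0.0014). The 4 genes fell to different extents, from 0.202 of the HM-1 level for Krt18 to 0.616 for Krt19. Line, strain and medium cannot be told apart in this comparison.

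Nestin and the light neurofilament chain stood out among other intermediate filament genes of HM-1. Of 16 listed, 7 were tested in HM-1 cultures, and 1 was called higher and 1 lower, against 11.6% and 16.1% of all genes (median 0.14, all genes -0.01). Nes, the filament of progenitor cells, rose from 291 ± 16.5 to 676 ± 8.50 CPM (log2 fold change 1.26, adjusted p = 8.5e-05), and from 252 ± 12.9 to 613 ± 36.4 CPM in tumors (adjusted p = 0.015). Nefl, the light neurofilament chain, went from 25.4 ± 2.26 CPM to 1 count in 3 cultures, and from 22.2 ± 10.9 to 0.393 ± 0.0642 CPM in tumors. In ID8 cultures 2 of 8 tested were called higher and 2 lower, against 29.4% and 31.3% of all genes (median 0.06, all genes -0.01), and Prph, a filament of peripheral neurons, rose from 2.23 ± 0.166 to 15.6 ± 0.349 CPM (log2 fold change 2.88). In tumors 2 of 11 were higher and 2 lower, against 2.2% and 3.19% of all genes (median 0.22, all genes -0.03): Des, the muscle filament, rose from 17.3 ± 7.63 to 86.0 ± 33.7 CPM beside the striated muscle markers above, and Krt20, a type I keratin of the gut, fell from 9.35 ± 2.56 to 3.16 ± 0.792 CPM.

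Desmoplakin and envoplakin, which anchor filaments, were lower under the Cd276KO label in HM-1 cultures and higher in ID8. Of 11 listed, 10 were tested in HM-1 cultures, 0 were called higher and 3 lower, against 11.6% and 16.1% of all genes (median -0.10, all genes -0.01). Pkp2, a plaque plakophilin, fell from 39.2 ± 1.83 to 23.0 ± 0.605 CPM, and Evpl, the linker envoplakin, from 16.0 ± 2.75 to 10.1 ± 0.854 CPM. Dsp, desmoplakin, which ties keratins to the desmosome, fell from 4.18 ± 1.51 to 0.218 ± 0.0341 CPM (log2 fold change -4.20, adjusted p = 0.00054), and is named here because it completes the 3. In ID8 cultures 2 of 10 were higher and 3 lower, against 29.4% and 31.3% (median -0.03, all genes -0.01): Dsp rose from 9.97 ± 0.493 to 33.5 ± 0.491 CPM and Evpl from 10.4 ± 1.24 to 25.8 ± 1.21 CPM, while Pkp1 fell from 13.0 ± 0.793 to 1.90 ± 0.214 CPM. In the interaction term 3 of 11 tested were called higher in ID8 than in HM-1 (Evpl, Pkp2 and Dsp). Another 3 were called lower (Plec, Dst and Pkp1), against 19.8% and 20.7% of all genes. Dsp stood at 6.03 (SE 0.35, adjusted p = 5.5e-08) and Evpl at 2.0 (SE 0.18, adjusted p = 2.4e-06), with the sign of the Krt18 term. Plec, Dst and Pkp1 had the opposite sign. In tumors Dsp was the 1 call of 10 tested, lower (3.19% of all genes), and lost with the block as above, with 4.17, 6.66 and 27.8 CPM in controls and 0 to 0.213 CPM under the label, the highest value again in control tumor 3.

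Regulators were counted from lists as well. Beside these counts, 11.6% of all genes were called higher and 16.1% lower in HM-1 cultures, 29.4% and 31.3% in ID8 and 2.2% and 3.19% in tumors. Of 10 filament kinases and organisers tested, Pak1, a kinase that acts on the cytoskeleton, was the 1 call in HM-1 cultures and fell from 47.8 ± 1.62 to 26.9 ± 0.333 CPM, and in ID8 4 were higher and 3 lower, near the 60.7% of all genes called there, with Pak1 lower again (50.6 ± 3.24 to 33.2 ± 1.81 CPM). Of 16 epithelial transcription and splicing regulators, 6 were tested in HM-1 cultures. Cdx2, an intestinal regulator, rose from 47.5 ± 5.31 to 109 ± 1.96 CPM and Klf4 from 95.3 ± 15.1 to 154 ± 4.23 CPM. These were the 2 called higher, and the 2 called lower were Elf3 and Esrp2, an epithelial splicing factor. In tumors Cdx2 was higher (16.4 ± 5.99 to 70.0 ± 12.1 CPM) and Klf4 lower (134 ± 4.4 to 72.9 ± 8.16 CPM), the 2 calls of 8 tested, both lost with the block as above. In ID8, 3 of 6 were higher (Grhl1, Tfap2a and Esrp2) and 2 lower (Klf5 and Trp63). There Esrp2, lower under the label in HM-1 cultures, rose from 25.3 ± 1.61 to 35.4 ± 1.42 CPM. Of 7 mesenchymal transcription factors, 2 of 6 tested were lower in HM-1 cultures (Prrx1, from 12.7 ± 2.02 to 3.28 ± 0.281 CPM, and Twist2). In ID8 5 of 6 were lower and 1 higher (Prrx1), with Snai2 falling from 18.6 ± 1.39 to 4.73 ± 0.906 CPM and Zeb1 from 24.3 ± 1.31 to 16.0 ± 1.64 CPM. None of these 7 was called between the tumor labels with edgeR.

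Keratins outside simple epithelia were few in culture. Of all genes tested, 11.6% were called higher and 16.1% lower in HM-1 cultures, 29.4% and 31.3% in ID8, and 2.2% and 3.19% in tumors. Of 15 keratins of stratified epithelium, 3 were tested in HM-1 cultures and none was called. Krt80 had means of 50.9 CPM in HM-1 control cultures and 50.6 CPM under the label. In ID8 2 of 5 were higher (Krt10 and Krt80) and 3 lower (Krt14, Krt15 and Krt79), all with ID8 means at or under 24.3 CPM. Of 20 hair follicle keratins 1 was tested in HM-1 cultures, Krt27, called lower, and 0 in ID8. In tumors 5 of the 15 were tested and none was called.

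The genes whose profile over the 6 group means was nearest to a member were found among 10227 genes, as the root mean square difference of centred log2(CPM + 1) values, and are a description. Slc35d1 (0.10), Rgs19 (0.13) and Vat1 (0.14) were nearest to Krt8, and Lysmd2 (0.15), Rab3b (0.18) and Otud1 (0.18) to Krt18. Sik2 (0.086), Cav2 (0.11) and Eea1 (0.12) were nearest to Krt19, and Anxa7 (0.086), Qsox2 (0.11) and Gfod1 (0.12) to Vim. Plod1, Gabbr1 and Selenop came nearest to Krt7, at 0.28 to 0.29. Krt23 was so low that its profile was almost flat on this scale, and its neighbours are not named. Among the members, the profile of Krt8 was closer to Vim (0.26) than to its neighbour Krt18 (0.29) or to Krt19 (0.36).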

How the data were processed

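Per the submitters' processing notes the reads were handled with Trim Galore, STAR and HTSeq on GRCm38 (mm10). For tool versions, annotation release and strandedness the entry is: not given in the sources used here. The authors deposited raw read counts per gene for 18 libraries, 3 in each of 6 groups, with 17349082 to 30959773 counts each. Of 54752 identifiers, 54723 matched GENCODE M21 without the version. CPM is per total count, and RPKM also per exon-union length. Where groups are said not to overlap, the share of all genes without overlap is not given, so the statement is only a description.

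Each comparison used edgeR 4.0.16 in R 4.3.3: TMM scaling, filterByExpr, robust quasi-likelihood F test on the libraries compared, Benjamini-Hochberg adjustment over all genes tested, call at an adjusted p under 0.05. SE is the log2 fold change over the root of F. Alternatives were RLE and upper-quartile scaling, DESeq2 1.42.0, limma 3.58.1 voom with quality weights, no filter, a mean of at least 5 CPM, a fit of all 18 libraries, a replicate block, each library left out, TMM-scaled levels and longest-transcript lengths. The fits were also run on counts simulated with the spread that edgeR had estimated. Those counts held no outlying library and few changed genes, unlike the real ones, so that run is not used as support.

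The members and lists were chosen with earlier results of these data known. Besides members and Cd276, the genes named from each list were up to 3 called ones per comparison with a mean of at least 5 CPM and the largest change, part of which are described. Genes outside that rule that complete a small count were named after their values were seen.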

Additional observations from a re-analysis of the deposited data

Results flagged for a closer look

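The knockout effect differed between the lines for 3 members, by the interaction term of the edgeR fit over the 12 culture libraries. Krt18 gave a difference of 1.45 on the log2 scale, being lower in 3 of 3 HM-1 libraries labelled Cd276KO than in any control and higher in 3 of 3 ID8 libraries. Krt19 gave -0.62, with a rise in HM-1 and overlapping groups in ID8. Vim gave 0.30, with an adjusted p of 0.049 that several alternatives moved past the threshold. Groups of 3 libraries were too small for a test of single outlying values.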

How the results depend on the processing

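Of the 657 values of single members under an alternative, 591 kept their direction and side of the threshold, 28 lost a call, 24 gained one and 14 changed sign. Counts of all genes called moved most. In HM-1 cultures limma voom called 7559 genes, and leaving out 1 library gave 1725 to 7491, against 3452. In ID8 the fit of all 18 libraries called 4259. Between tumor labels, DESeq2 called 2270, limma voom 3177, the fit of all 18 libraries 4003, the replicate block 0, and leaving out 1 library 0 to 1685. Between control tumors and cultures, limma voom called 9490, the fit of all 18 libraries 9975 and the 5 CPM filter 3585. For the effect in tumors against cultures, DESeq2 called 885, limma voom 3062, the fit of all 18 libraries 845, leaving out 1 library 225 to 913, and leaving out both libraries that stood apart 1553, a setting chosen after seeing the data.

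Member counts moved as follows. In HM-1 cultures 0 were higher with all 18 libraries, and 2 were lower with limma voom and 1 to 2 with a library left out. In ID8 2 were higher with limma voom and 1 to 3 with a library left out. Between tumor labels 1 was lower with all 18 libraries. Between control tumors and cultures, 0 were higher with the 5 CPM filter and 1 to 2 with a library left out. There, 0 were lower with upper-quartile scaling, the 5 CPM filter or the replicate block, 2 with DESeq2, no filter or all 18 libraries, 4 with limma voom or without both libraries that stood apart, and 0 to 4 with a library left out. With the 5 CPM filter 0 were higher in Cd276KO tumors than in cultures. With all 18 libraries 1 was higher in ID8 than in HM-1 controls. For the effect in ID8 against HM-1, 1 was higher with RLE scaling, no filter, the 5 CPM filter, the replicate block or all 18 libraries, and 1 to 2 with a library left out, and 0 were lower with all 18 libraries. For the effect in tumors against cultures limma voom called 1 higher and 2 lower.

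Changes of sign were in values not called. Krt18 in Cd276KO tumors against cultures was 0.031 with upper-quartile scaling and 0.015 with the 5 CPM filter. Krt8 in HM-1 cultures was 0.060 with limma voom and -0.076 to 0.066 with a library left out. Krt19 between tumor labels was 0.31 with limma voom, 0.070 with the replicate block and -0.27 to 0.48 with a library left out. With a library left out, Krt19 ran from -0.71 to 0.0041 between control tumors and cultures and from -0.035 to 0.11 in ID8, Krt23 from -0.0084 to 0.46 between tumor labels and from -2.22 to 0.30 in the tumor against culture effect, and Krt7 from -1.04 to 0.062 in the ID8 against HM-1 effect. The cause was not tested.

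The main fits did not pair libraries by replicate number. In no comparison was the correlation of same-numbered libraries over 0.1 for every number. In ID8 it was 0.357, 0.0686 and 0.243, and 3 of 3 libraries correlated best with their own number. Whether the numbers mark pairs in ID8 was not tested further. Krt7 and Krt23 rested on few counts in culture, which limits the precision there.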
